A study of Mus musculus with 1152 samples.

Results

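Receptor genes for glutamate, GABA, acetylcholine and somatostatin, 35 of the 46517 genes in the count table, were followed across the cell types of a single-cell data set from the mouse brain. They comprise 4 AMPA receptor subunits, 5 kainate receptor subunits, 5 NMDA receptor subunits, 6 metabotropic glutamate receptors, 8 GABA-A and 2 GABA-B receptor subunits, and 5 receptors for acetylcholine or somatostatin. They were chosen by name, as a list of receptors, with earlier results of these data known, so the list was not blind to their levels. They were read in 4 cell types of the brain: oligodendrocyte precursors, committed precursors, mature oligodendrocytes and fibroblasts. Committed precursors are cells that have left the precursor state and have not yet made myelin.

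AMPA, kainate and NMDA receptors are glutamate-gated channels built of subunits, and the choice of subunits sets their ion permeability and speed. Metabotropic glutamate receptors and GABA-B receptors signal through G proteins, whereas GABA-A receptors are chloride channels assembled from several subunits. Oligodendrocyte precursors are known to receive synapses from neurons, and they carry AMPA, NMDA and GABA-A receptors that are lost or reduced as the cells mature.

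The cells came from the brains of adult C57BL/6 mice, males and females, of a Pdgfra-H2BGFP line and a Tagl-CREERT2;Ai14 line. In the first line the Pdgfra gene drives a green fluorescent histone, so fibroblasts and oligodendrocyte precursors can both carry it. In the second, an inducible Cre recombinase turns on the red fluorescent reporter Ai14. Brain tissue was digested, vascular fragments were captured on beads coated with CD31 antibody and digested further, and fluorescent cells were sorted singly into wells for SMART-seq2, a method that sequences full-length cDNA. Which mouse, line or plate a well came from is not given in the sources used here, so the wells of a cell type make up 1 sample, and no difference below has a replicate check or a test. The column names split the 1152 wells into 3 sets of 384, called 600s_182s, 613s and 1025s_182s, and each comparison was repeated within the sets as a description.

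Of the 1152 wells, 857 had at least 50000 reads and 699 of these had under 5% mitochondrial reads. Depth in the 699 ran from 52792 to 1451280 reads, with a median of 337797. A well was gated by 6 markers for each of 10 cell types, none of them a receptor of the list. This gave 216 precursor wells (170, 28 and 18 in 600s_182s, 613s and 1025s_182s), 77 committed precursor wells (65, 9 and 3), 218 mature oligodendrocyte wells (56, 84 and 78) and 78 fibroblast wells (20, 22 and 36). Each gate had all 6 of its own markers above 10 CPM, the counts of a gene per 1000000 reads. Most precursors and committed precursors thus came from 1 set, 600s_182s, and committed precursors in 1025s_182s were too few for a value. Neuron markers, which could bring neuronal receptor RNA with them, summed to 516 CPM in precursors, 200 CPM in committed precursors, 472 CPM in mature oligodendrocytes and 40.0 CPM in fibroblasts. At least 2 of the 6 neuron markers reached 20 CPM in 90 precursor wells, and the counts below are therefore also given without such wells. Astrocyte markers were likewise highest in precursors, at 1180 CPM against 266 CPM in committed precursors, 472 CPM in mature oligodendrocytes and 281 CPM in fibroblasts, and at least 2 of the 6 reached 20 CPM in 177 precursor wells.

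The upstream stretches of 4 genes are printed to show how unlike the start regions of these genes are, from genes whose levels set the cell types apart: Gria2 and Grin1 with a promoter rich in CG pairs, Gabrg1 with almost none, and Grm3, the receptor of mature cells. Each is the 250 bases before the RefSeq start (GRCm38.p6, all on the minus strand, printed 5′ to 3′ as the gene reads), and capitals mark CG pairs. They lie at chr3:80802836-80803085, chr2:25319188-25319437, chr5:70842618-70842867 and chr5:9725353-9725602 in this order.
Gria2: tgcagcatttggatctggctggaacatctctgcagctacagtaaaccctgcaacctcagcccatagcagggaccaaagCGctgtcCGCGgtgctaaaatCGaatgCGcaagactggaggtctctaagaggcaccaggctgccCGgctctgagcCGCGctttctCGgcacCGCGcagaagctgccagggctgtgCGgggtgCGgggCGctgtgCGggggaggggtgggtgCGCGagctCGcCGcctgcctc
Grin1: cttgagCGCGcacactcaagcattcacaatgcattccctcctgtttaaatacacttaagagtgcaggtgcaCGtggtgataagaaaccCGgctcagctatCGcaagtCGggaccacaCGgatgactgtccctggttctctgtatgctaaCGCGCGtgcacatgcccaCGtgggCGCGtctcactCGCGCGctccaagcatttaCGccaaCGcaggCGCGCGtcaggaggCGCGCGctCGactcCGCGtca
Gabrg1: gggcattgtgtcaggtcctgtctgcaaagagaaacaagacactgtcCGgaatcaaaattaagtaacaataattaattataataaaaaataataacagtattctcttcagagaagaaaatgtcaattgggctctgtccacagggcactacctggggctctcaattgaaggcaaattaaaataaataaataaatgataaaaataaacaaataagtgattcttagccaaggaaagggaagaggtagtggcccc
Grm3: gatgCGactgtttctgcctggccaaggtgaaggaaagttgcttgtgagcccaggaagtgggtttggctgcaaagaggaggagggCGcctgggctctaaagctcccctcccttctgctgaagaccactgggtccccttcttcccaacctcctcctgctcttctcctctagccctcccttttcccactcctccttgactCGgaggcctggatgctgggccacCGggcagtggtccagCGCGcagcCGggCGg

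Gria2 held 19 CG pairs, Grin1 27, Gabrg1 1 and Grm3 8. Of the 32851 promoters in the table, 92.1% held at least 1 CG pair, 43.0% held at least 8, 19.7% at least 19 and 8.56% at least 27. The 25 receptor genes with an entry had 32 such stretches, with a median of 11 CG pairs against 6 over all promoters and a median GC content of 62.2% against 52.4%. Short motifs, 3 in number, were searched on both strands. The E-box CAGCTG was in none of the 32 and in 13.0% of all promoters, ACAAAG, a core of SOX sites, was in 2 (Gabbr1 and Gabra3) and in 16.5%, and TTCAGCACC, the left arm of the RE1 element, was in 1 (Grm2) and in 0.301%. Genes that were high in the same cells thus differed in the base composition of their start regions, Gria2 with a GC content of 64.8% and Gabrg1 with 35.6%.

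Of the 35 genes, 27 reached 10 CPM in at least 1 of the 4 cell types. Of these 27, 24 were highest in precursors, 1 (Grik2) in committed precursors, 2 (Grm3 and Grm7) in mature oligodendrocytes and 0 in fibroblasts. All 27 reached 10 CPM in precursors, 12 in committed precursors, 9 in mature oligodendrocytes and 3 (Gria3, Gabra3 and Gabbr1) in fibroblasts. The reads of all 35 genes summed to 2882 CPM in precursors, 850 CPM in committed precursors, 573 CPM in mature oligodendrocytes and 168 CPM in fibroblasts. Within the sets the sum ran from 2240 to 3057 CPM in precursors, from 833 to 1091 CPM in committed precursors, from 498 to 663 CPM in mature oligodendrocytes and from 137 to 197 CPM in fibroblasts, so the ranges of the 4 cell types did not overlap. The 8 genes under 10 CPM in every cell type were Grin2a, Grin2b, Grin2c, Grm2, Grm8, Gabra5, Chrna7 and Chrm3.

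**Figure D1:**
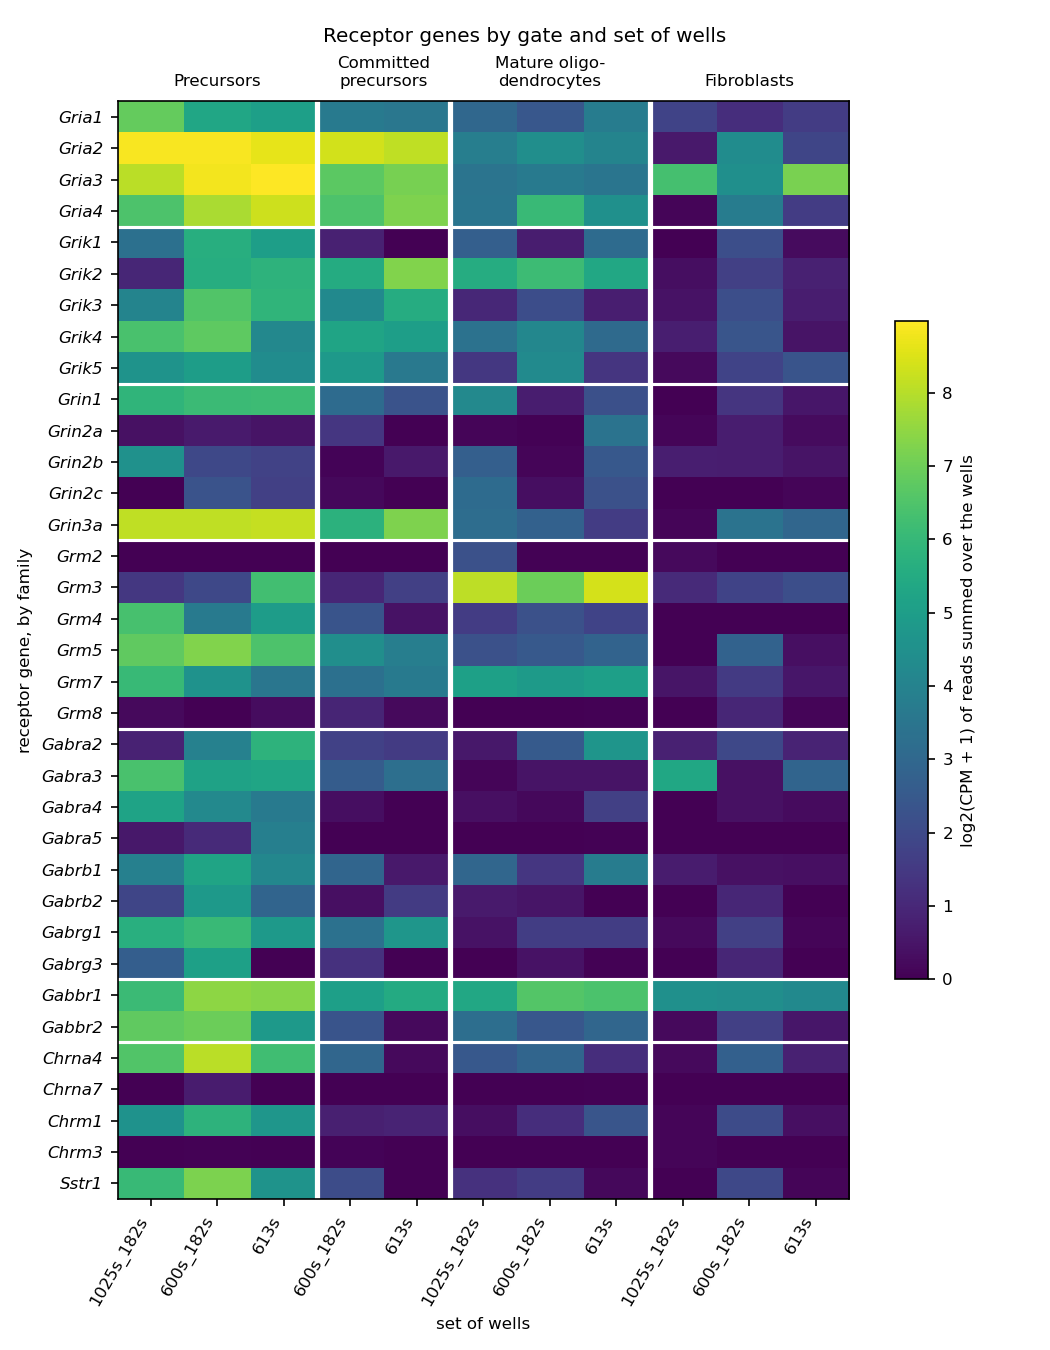
Level of each of the 35 receptor genes (rows, by family) in each cell type and set of wells (columns), as log2(CPM + 1) of the reads summed over the wells, where CPM is counts per 1000000 reads. The 3 precursor columns are bright for most rows, the Grm3 row is brightest in mature oligodendrocytes, and committed precursors of 1025s_182s (3 wells) are not drawn.

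A gene was called higher where its CPM, with 1 CPM added to each side, was at least 2 times that of the other cell type and reached at least 10 CPM. Against committed precursors, 24 of the 35 genes were higher in precursors and 0 were lower, beside 5.89% and 2.61% of all 46517 genes. Since low genes cannot be called, the share among genes at 10 CPM or more in either cell type is given too. Of those 11466 genes, 23.9% were higher in precursors, against 24 of 27 receptor genes. These shares are not alike: all 27 receptor genes reached 10 CPM in precursors and only 12 in committed precursors. Receptor genes thus passed the limit through precursors, whereas other genes could pass through either cell type. The same limit holds for precursors against mature oligodendrocytes and against fibroblasts. The median log2 ratio of the 35 genes was 2.27 and that of all genes 0, and over those at 10 CPM it was 2.35 for the receptors and 0.15 for all genes. The 3 genes not called at that level were Gria2, Grik2 and Grik5. Within 600s_182s, 23 of the 35 genes were higher in precursors and 0 lower, beside 5.84% and 2.79% of all genes. Within 613s, 18 were higher and 1 (Grik2) lower, beside 8.91% and 5.35%. Of the 24 genes, 16 were called in both sets.

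Against mature oligodendrocytes, 23 of the 35 genes were higher in precursors and 1 (Grm3) was lower, beside 7.62% and 2.79% of all genes, and 30.8% and 11.3% of genes at 10 CPM or more. The median log2 ratio was 2.81. Within 600s_182s, 613s and 1025s_182s, 22, 21 and 19 genes were higher in precursors, beside 8.07%, 8.43% and 8.1% of all genes. The numbers that were lower there were 1, 2 and 2, beside 3.26%, 5.32% and 5.64%, and 17 of the 23 genes were called in every set. Against fibroblasts, 26 of the 35 genes were higher in precursors and 0 lower, beside 7.75% and 5.62% of all genes and 28.8% and 20.9% of those at 10 CPM or more. The median log2 ratio was 4.35. Within 600s_182s, 613s and 1025s_182s, 26, 26 and 22 genes were higher in precursors, beside 12.1%, 9.23% and 8.06% of all genes, and 0 were lower, beside 5.36%, 7.39% and 8.64%. In every set 20 of the 26 genes were called. Gabra3 was the gene at 10 CPM that was not called there over all wells (log2 ratio 0.91), although it was called higher in precursors within 600s_182s (4.78), 613s (2.38) and 1025s_182s (1.07).

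Between committed precursors and mature oligodendrocytes the genes split. Of the 35, 9 were higher in committed precursors (Gria2, Gria3, Gria4, Grik3, Grik4, Grik5, Grin3a, Grm5 and Gabrg1) and 4 were higher in mature oligodendrocytes (Grm3, Grm7, Gabra2 and Gabbr1). Only 15 of the 35 reached 10 CPM in either of these cell types and could be called. All genes gave 4.68% and 2.96%, and genes at 10 CPM or more 20.7% and 13.1%. The median log2 ratio of the 35 was 0.22. Within 600s_182s, 7 genes were higher in committed precursors and 3 in mature oligodendrocytes, beside 5.13% and 3.03% of all genes, and within 613s 9 and 4, beside 5.89% and 6.56%. In both sets 5 of the 9 and 2 of the 4 were called, the others being Gria4, Grik5, Grm5, Gabrg1, Gabra2 and Gabbr1. The 9 genes include 7 subunits of glutamate-gated channels. The 5 acetylcholine and somatostatin receptors were under 10 CPM in both cell types and could not be called.

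The comparisons share their cells, precursors entering 3 of the 4, so their counts are not independent of each other. Wells in which 2 or more neuron markers reached 20 CPM were then left out, which kept 126 precursor, 59 committed, 150 mature and 74 fibroblast wells. Precursors were again higher than committed precursors in 24 genes, than mature oligodendrocytes in 23 and than fibroblasts in 27, and committed precursors were higher than mature oligodendrocytes in 9. In the same order, 0, 1, 0 and 4 receptor genes were lower. Of all 46517 genes, 2845, 3724, 3658 and 2382 were higher there, and 1440, 1474, 2713 and 1467 were lower. In the 126 precursor wells the neuron markers summed to 195 CPM and the 35 receptor genes to 2940 CPM. In all 216 wells these sums were 516 and 2882 CPM. Single genes moved both ways, Gria1 from 44.6 CPM in all 216 wells to 31.8 CPM and Gabbr2 from 106 to 142 CPM. The part of neuronal RNA in the levels was not tested beyond this. Without wells in which 3 or more astrocyte markers reached 20 CPM, which kept 185 precursor wells, precursors were higher than committed precursors in 24 genes, than mature oligodendrocytes in 24 and than fibroblasts in 27, and committed precursors were higher than mature oligodendrocytes in 8. In that order 0, 1, 0 and 3 receptor genes were lower. Over all genes, 2734, 3579, 3678 and 2295 were higher, and 1313, 1381, 2654 and 1382 were lower. The limit of 3 astrocyte markers was looser than the 2 markers that 177 of all 216 precursor wells reached, so wells with 2 stayed in. The part of astrocyte RNA in the levels was not tested beyond this.

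**Figure D2:**
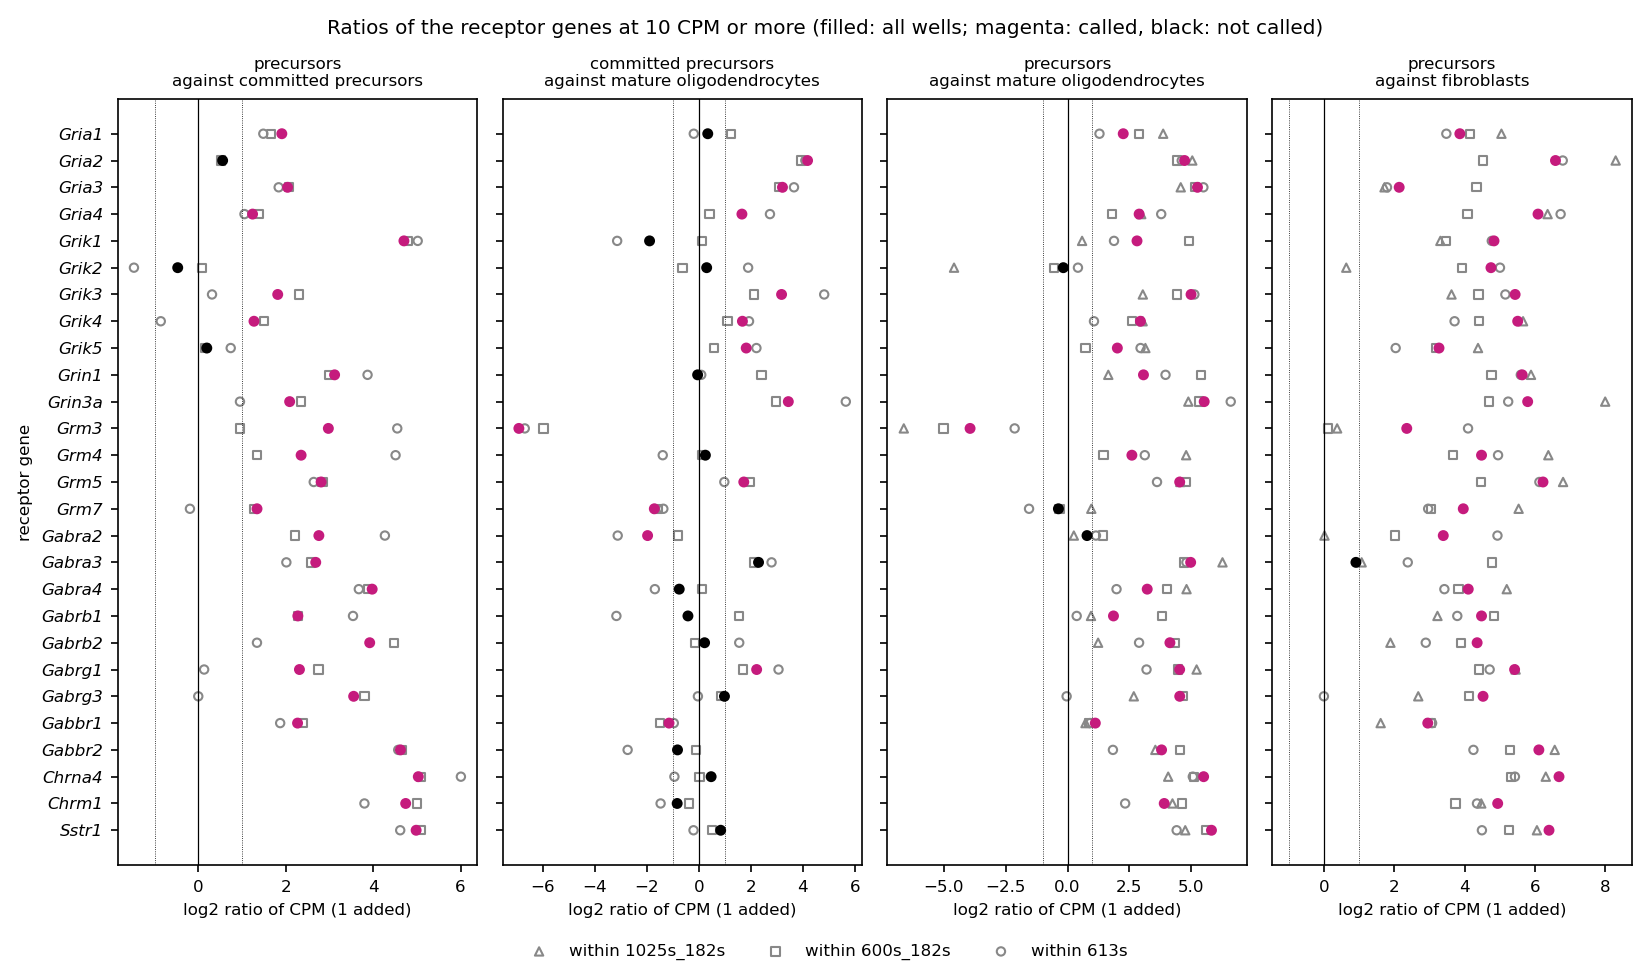
Log2 ratio of CPM, with 1 CPM added to each side, for the 27 receptor genes that reached 10 CPM, in 4 comparisons; filled points use all wells (magenta where called, black where not), open symbols the wells of 1 set, dotted lines a ratio of 2. Most points lie right of 0 where precursors come first, Grm3 lies left of 0 against mature oligodendrocytes in every set, and the panel of committed precursors against mature oligodendrocytes has called points on both sides.

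AMPA receptor subunits gave the highest family sum in precursors, 1175 CPM, with 526 CPM in committed precursors and 65.7 CPM in mature oligodendrocytes. Gria2 encodes the subunit that, once its RNA is edited, makes the channel impermeable to calcium. It stood at 458 CPM in precursors (95% Poisson interval 453 to 463, covering counting error only), 311 CPM in committed precursors (305 to 316), 16.2 CPM in mature oligodendrocytes (15.4 to 17.0) and 3.79 CPM in fibroblasts (3.07 to 4.63). Precursors and committed precursors differed by a log2 ratio of 0.56 and were not called, whereas committed precursors exceeded mature oligodendrocytes by 4.18. Within 600s_182s, 613s and 1025s_182s, precursors had 469, 402 and 474 CPM and mature oligodendrocytes 20.7, 15.4 and 13.4 CPM, and committed precursors had 328 and 279 CPM in the first and second of these sets. Precursors thus exceeded mature oligodendrocytes in each of the 3 sets, and committed precursors in the 2 in which they had a value. By well, Gria2 had a median of 410 CPM in precursors and 298 CPM in committed precursors, against 3.48 CPM in mature oligodendrocytes.

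To compare wells of unlike depth, each was thinned to 50000 reads. Gria2 then had a read in 93.1% of precursor wells (exact binomial interval 88.8 to 96.1), 88.3% of committed precursor wells (79.0 to 94.5), 28.0% of mature wells (22.1 to 34.4) and 15.4% of fibroblast wells (8.21 to 25.3). Without thinning, at median depths of 275439, 478688, 376098 and 285316 reads, the shares were 97.7%, 98.7%, 61.9% and 47.4%. Fibroblasts and endothelial cells are not known for AMPA receptors, and their shares, 15.4% and 12.5%, stand beside the others as background. The background was not the same in every set: the thinned fibroblast share of Gria2 was 45.0% of 20 wells in 600s_182s, 9.09% of 22 in 613s and 2.78% of 36 in 1025s_182s. In the same order the 6 precursor markers summed to 1050, 455 and 441 CPM in fibroblasts, a sum that includes Pdgfra, which fibroblasts use. Their part in the detection of receptor reads was not tested.

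Gria3 and Gria4 encode AMPA subunits that pair with Gria2. Gria3 was at 440 CPM in precursors, 106 CPM in committed precursors, 10.5 CPM in mature oligodendrocytes and 99.2 CPM in fibroblasts. It was the receptor gene with the smallest called ratio between precursors and fibroblasts, a log2 ratio of 2.14. Fibroblasts had 21.2, 145 and 79.2 CPM in 600s_182s, 613s and 1025s_182s, and the 5 highest of 78 wells held 63.6% of their Gria3 reads, while 13 wells reached 100 CPM. After thinning, 41.0% of fibroblast wells had a Gria3 read (30.0 to 52.7), against 16.1% of mature wells (11.4 to 21.6) and 12.5% of 32 endothelial wells (3.51 to 29.0). Fibroblasts had Gria3 reads in 50.0%, 45.5% and 33.3% of wells in the 3 sets, so in 1025s_182s, where Gria2 was in 2.78% of wells, Gria3 was in 33.3%. Gria4 was at 233, 97.9, 30.4 and 2.45 CPM in precursors, committed precursors, mature oligodendrocytes and fibroblasts, and its precursor level was called over the committed one in each of 600s_182s (230 against 88.0 CPM) and 613s (316 against 151 CPM), but not with 600s_182s left out (log2 ratio 0.73 in place of 1.24). Committed precursors exceeded mature oligodendrocytes in Gria4 by a call in 613s and not in 600s_182s, where the levels were 88.0 and 66.1 CPM. Gria1, the subunit best known from hippocampal plasticity, was at 44.6, 11.1, 8.56 and 2.13 CPM, and 20 of 216 precursor wells reached 100 CPM.

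Levels of different genes were compared per length, as CPM per kilobase of annotated exons (RPKM). This counts all annotated exons, so a gene with long unused exons reads too low. On that scale Gria3 made up 37.7% of the AMPA sum in precursors, Gria4 31.2%, Gria2 24.9% and Gria1 6.23%. In committed precursors Gria2 had the largest share, 41.5%, followed by Gria4 with 32.3% and Gria3 with 22.4%. These orders turned between sets: in committed precursors of 613s Gria4 held 41.4% and Gria2 31.0%, and in precursors of 1025s_182s Gria2 held 33.8% and Gria3 29.7%. In mature oligodendrocytes, where the AMPA sum was 8.35 RPKM against 118 RPKM in precursors, Gria4 held 57.8% (76.4%, 45.8% and 35.0% in 600s_182s, 613s and 1025s_182s). In fibroblasts Gria3 held 91.1% (38.2%, 94.7% and 94.6% by set). Of thinned wells, 6.48% of precursors and 7.79% of committed precursors had another AMPA subunit and no Gria2, against 26.6% of mature oligodendrocytes and 39.7% of fibroblasts. All 4 subunits were read together in 11.6% of precursor wells.

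**Figure D3:**
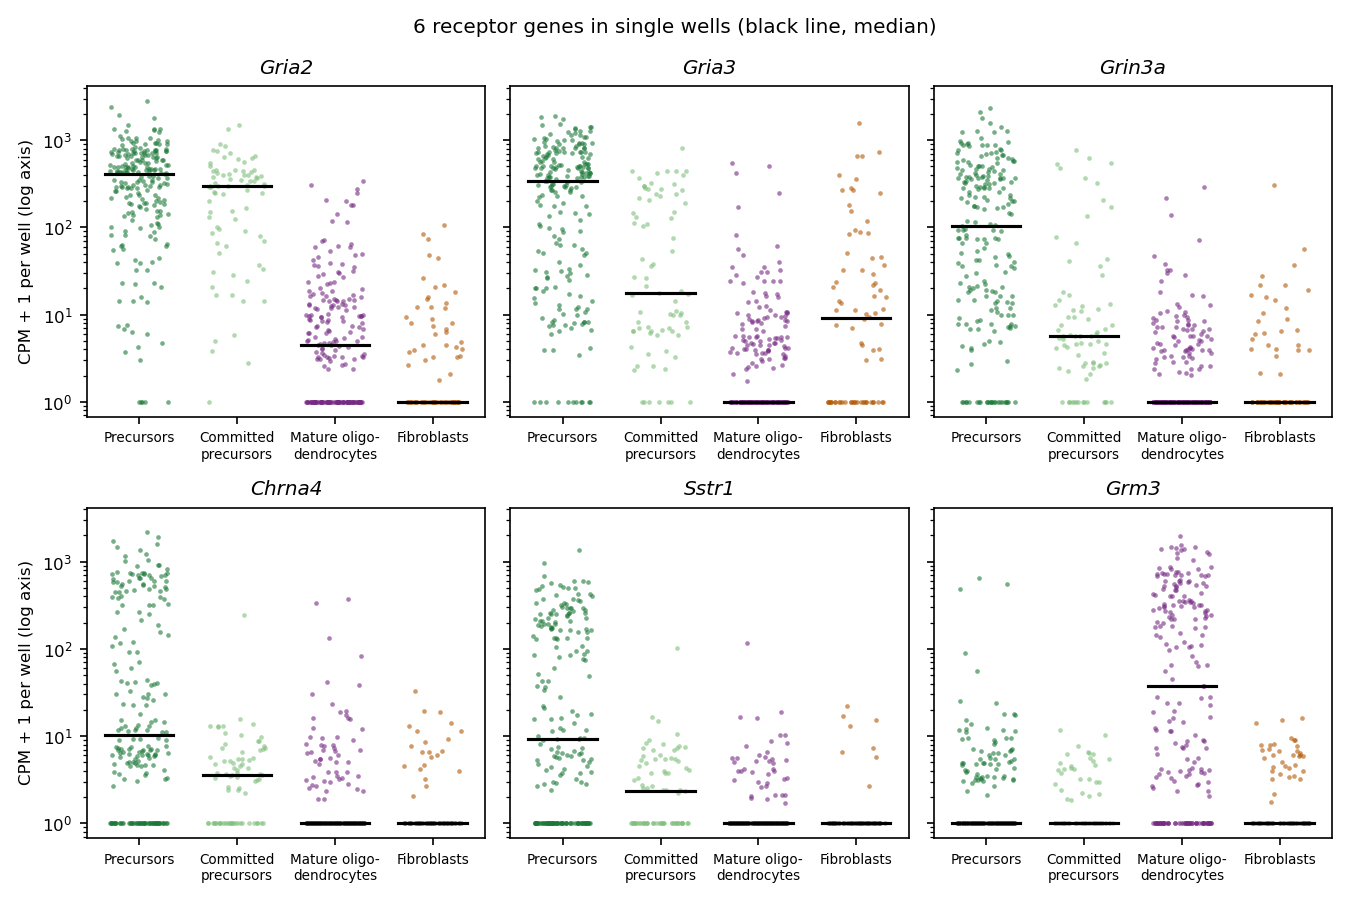
CPM + 1 (log axis) of 6 receptor genes in every well, by cell type; each point is 1 well, wells without a read lie at 1, and the black line is the median. Gria2 fills precursor and committed precursor wells alike, Chrna4 and Sstr1 are spread from 0 to over 1000 CPM among precursors, Grm3 is high in part of the mature oligodendrocytes, and some fibroblast wells reach 100 CPM or more of Gria3.

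Kainate receptor subunits summed to 285 CPM in precursors, 146 CPM in committed precursors, 74.4 CPM in mature oligodendrocytes and 5.13 CPM in fibroblasts. Grik2, a subunit that forms channels by itself, was at 44.9 CPM in precursors, 62.7 CPM in committed precursors, 50.7 CPM in mature oligodendrocytes and 0.711 CPM in fibroblasts, and it was called only against fibroblasts. Its precursor level was 47.8, 55.4 and 0.955 CPM in 600s_182s, 613s and 1025s_182s, and in 613s committed precursors had 155 CPM. The sets disagreed on Grik2: it was called higher in committed precursors in 613s, and in 1025s_182s it was called higher in mature oligodendrocytes than in precursors, with a log2 ratio of precursors to mature cells of -4.59. Grik5, a subunit that needs a partner such as Grik2, was at 28.5, 24.7, 6.29 and 2.05 CPM, with precursors and committed precursors not called apart.

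Grik1 was at 42.1 CPM in precursors, 0.654 CPM in committed precursors, 5.15 CPM in mature oligodendrocytes and 0.513 CPM in fibroblasts. Grik3 was at 79.8, 21.9, 1.53 and 0.869 CPM and Grik4, like Grik5 an auxiliary high-affinity subunit, at 89.3, 36.3, 10.7 and 0.987 CPM. The calls of Grik3 and Grik4 between precursors and committed precursors rested on 600s_182s: without it their log2 ratios went from 1.82 to 0.14 and from 1.27 to 0.28. Within 613s neither was called, and Grik4 was at 17.1 CPM in precursors against 31.8 CPM in committed precursors (log2 ratio -0.86). Grik1 was uneven too: in precursors it was at 48.8, 31.5 and 8.91 CPM in 600s_182s, 613s and 1025s_182s. After thinning it was read in 40 of 170, 1 of 28 and 1 of 18 precursor wells. Within 1025s_182s it was called neither over mature oligodendrocytes nor over fibroblasts. At least 1 kainate subunit was read in 82.9% of thinned precursor wells and 80.5% of committed precursor wells, against 40.4% of mature and 24.4% of fibroblast wells.

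Of the 5 NMDA receptor genes on the list, precursors had mainly Grin3a. Grin2d and Grin3b were not on the list. NMDA receptors need GRIN1, and GRIN3A replaces or joins the GRIN2 subunits and lowers calcium entry and magnesium block. Grin3a was at 279 CPM in precursors (276 to 283), 64.8 CPM in committed precursors (62.4 to 67.3), 5.08 CPM in mature oligodendrocytes (4.63 to 5.55) and 4.07 CPM in fibroblasts (3.32 to 4.93). Its precursor level was 277, 290 and 276 CPM in 600s_182s, 613s and 1025s_182s. Committed precursors had 53.6 CPM in 600s_182s and 149 CPM in 613s, and within 613s precursors were not called over them (log2 ratio 0.95). In committed precursors the 5 highest of 77 wells held 65.9% of the reads, and the well median was 4.67 CPM against 104 CPM in precursors.

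Grin1, the obligatory subunit, was at 68.3, 6.97, 7.24 and 0.395 CPM in precursors, committed precursors, mature oligodendrocytes and fibroblasts. Its 3 set values in precursors were 69.0, 70.2 and 58.1 CPM, and without the wells that held neuron markers it was at 66.4 CPM. Of its exon bases, 13.5% overlap Grin1os on the other strand, and SMART-seq2 reads carry no strand. Grin2a, Grin2b and Grin2c stayed under 10 CPM in all 4 cell types, with at most 4.51 CPM for Grin2b in precursors. Within 1025s_182s, however, Grin2b was at 22.1 CPM in the 18 precursor wells and was called there over mature oligodendrocytes (log2 ratio 1.80) and fibroblasts (3.78). After thinning, only 1 of these 18 wells had a Grin2b read, against 6 of the 78 mature wells of the set. Neuron markers summed to 947 CPM in the 18 wells, and their part in the Grin2b level was not tested. On the RPKM scale Grin3a made up 74.3% of the sum of the 5 listed NMDA genes in precursors (73.8% to 76.5% within the sets) and Grin1 23.0%. Thinned precursor wells had Grin3a without Grin1 in 53.2%, both in 21.3%, and any of the 3 listed Grin2 genes in 6.48%. That last share was 3.90% in committed precursors, 11.9% in mature oligodendrocytes and 7.69% in fibroblasts, and Grin2d was not counted in it. Grin1 reached 100 CPM in 14.7% of the 109 wells with at least 100 CPM of Grin3a and in 15.0% of the other 107.

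Metabotropic glutamate receptors included the one gene that was higher in mature oligodendrocytes by a wide margin. Grm3, a receptor that lowers cyclic AMP, was at 258 CPM in mature oligodendrocytes (254 to 261), 15.8 CPM in precursors (14.9 to 16.8), 1.14 CPM in committed precursors (0.836 to 1.51) and 2.29 CPM in fibroblasts (1.74 to 2.96). In 600s_182s, 613s and 1025s_182s mature oligodendrocytes had 123, 338 and 270 CPM. The precursor value came from few wells, the 5 highest of 216 holding 90.2% of the reads, and its set values were 2.82, 76.0 and 1.75 CPM. Without 613s, Grm3 was no longer called between precursors and committed precursors (log2 ratio 0.92 in place of 2.98) or fibroblasts (0.61 in place of 2.35).

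Among the mature wells Grm3 ran from 0 to 1947 CPM with a median of 36.9, and 100 of 218 wells reached 100 CPM. After thinning it was read in 56.9% of mature wells (50.0 to 63.6), 13.0% of precursor wells, 10.4% of committed precursor wells and 14.1% of fibroblast wells. On the RPKM scale it made up 92.8% of the metabotropic sum of mature oligodendrocytes, 91.0 RPKM in all, which exceeded the 26.5 RPKM of precursors. Its family was the only one of the 7 whose CPM sum over all wells was higher in mature oligodendrocytes than in precursors, 298 against 200 CPM. This order held within 613s (380 against 205 CPM) and 1025s_182s (312 against 259 CPM) and was turned within 600s_182s (160 against 192 CPM).

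Grm5, which couples to calcium release, was at 139, 18.9, 5.02 and 0.869 CPM in precursors, committed precursors, mature oligodendrocytes and fibroblasts. Its 3 set values in precursors were 155, 88.5 and 110 CPM, and without 600s_182s it was no longer called between committed precursors and mature oligodendrocytes (log2 ratio 0.90 in place of 1.73). Its share of the metabotropic RPKM of precursors was 51.2% over all wells and 69.0% in 600s_182s, but in 613s Grm3 led with 61.8%, and in 1025s_182s Grm4 held 38.0%, Grm7 30.7% and Grm5 29.7%. Grm7, a presynaptic receptor in neurons, was at 24.4, 9.01, 31.8 and 0.632 CPM, and its mature level was near 30 in each set, at 28.9, 32.8 and 33.0 CPM. It was called higher in mature oligodendrocytes than in committed precursors, in both sets with a value. It was also called higher in precursors than in committed precursors, but not within 613s, where the levels were 10.5 and 12.1 CPM (log2 ratio -0.19). Grm4 was at 21.3, 3.36, 2.67 and 0 CPM, and in precursors at 11.8, 29.9 and 82.1 CPM by set.

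**Figure D4:**
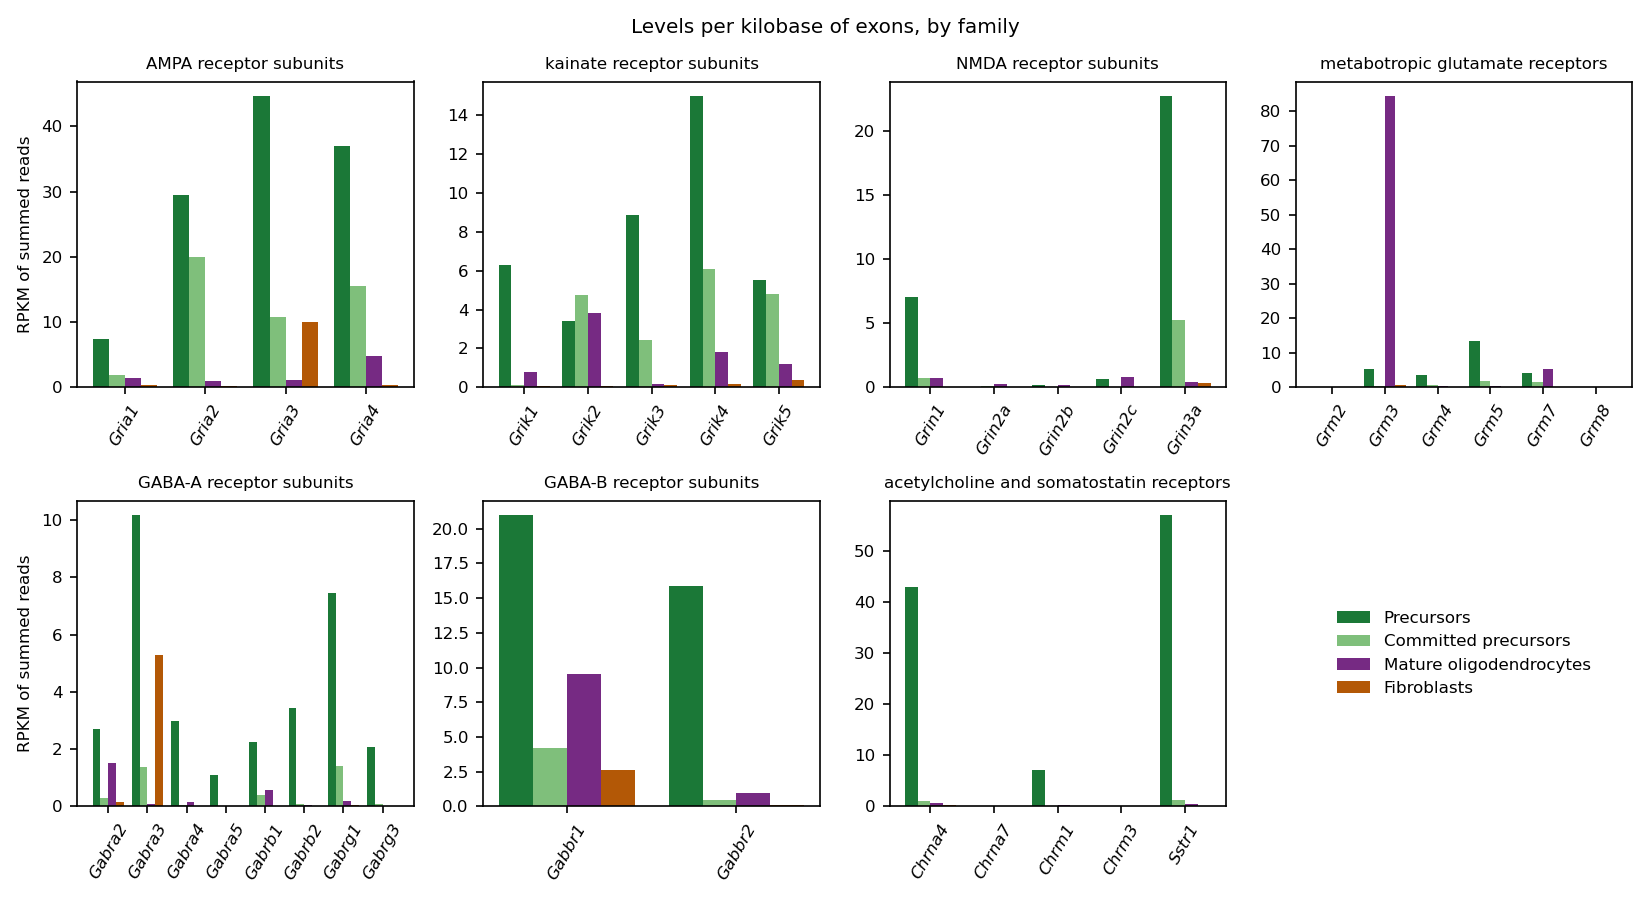
Level of each receptor gene per kilobase of annotated exons (RPKM of the reads summed over wells), by family, in 4 cell types; each bar is 1 gene in 1 cell type and the axes differ between families. Precursor bars have the highest sum in 6 of the 7 families, Grm3 leads in mature oligodendrocytes, and Gria3 and Gabra3 are the tallest fibroblast bars of their families.

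GABA-A receptor subunits summed to 218 CPM in precursors and to 26.0, 22.7 and 23.0 CPM in committed precursors, mature oligodendrocytes and fibroblasts. Of the 8 subunits, 7 were higher in precursors than in committed precursors (5.89% of all genes), 6 than in mature oligodendrocytes (7.62%) and 6 than in fibroblasts (7.75%). Among genes at 10 CPM or more the shares were 23.9%, 30.8% and 28.8%. These are not alike, since the called subunits all reached 10 CPM in precursors, and other genes could pass through either cell type. Gabra5 was under 10 CPM in every cell type and could not be called. Gabrg1, a gamma subunit, was at 58.7, 11.0, 1.57 and 0.395 CPM. The alpha subunits Gabra2, Gabra3 and Gabra4 were at 20.7, 39.9 and 18.2 CPM in precursors and at 2.20, 5.35 and 0.218 CPM in committed precursors. The beta subunits Gabrb1 and Gabrb2 were at 31.0 and 21.9 CPM in precursors and at 5.59 and 0.508 CPM in committed precursors. Gabrg3 was at 24.7 CPM in precursors and 1.19 CPM in committed precursors.

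Several of these genes differed between sets. In precursors Gabrg3 was at 33.1 CPM in 600s_182s, 0 CPM in 613s and 5.41 CPM in 1025s_182s, and Gabrb2 at 28.0, 6.44 and 2.71 CPM. Without 600s_182s, neither gene was called against any other cell type, and Gabrg1 lost its call over committed precursors (log2 ratio 0.80 in place of 2.31). Gabrb1 then lost its call over mature oligodendrocytes (0.59 in place of 1.86), which was also not made within 613s (0.37) or 1025s_182s (0.95). The call of Gabrg1 in committed precursors over mature oligodendrocytes was not made within 600s_182s and was lost under 4 of the alternatives. Gabra2 was higher in mature oligodendrocytes than in committed precursors through 613s, where it was at 24.5 CPM, and not in 600s_182s, where it was at 4.80 CPM. Gabra3 in fibroblasts (20.8 CPM) came almost wholly from few wells: the 5 highest of 78 held 99.6% of its reads.

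A GABA-A channel needs alpha and beta subunits, most often with a gamma subunit. At least 1 of the 8 subunits was read in 73.6% of thinned precursor wells (67.2 to 79.4), 33.8% of committed precursor wells, 21.6% of mature wells and 19.2% of fibroblast wells. An alpha, a beta and a gamma subunit of the list were read together in 4.63% of precursor wells and in 0 of 77 committed precursor, 0 of 218 mature and 0 of 78 fibroblast wells; the upper exact limits of these zeros are 4.68%, 1.68% and 4.62%. Gabrg1, Gabra2, Gabra4 and Gabrb1 lie in one stretch of chromosome 5, between 70751047 and 72149037 (GRCm38), and the ends of Gabra4 and Gabrb1 overlap there. All 4 genes were higher in precursors than in committed precursors, as were 7 of the 8 GABA-A subunits in all. Within 613s Gabrg1 was not called (log2 ratio 0.13).

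GABA-B receptors are pairs of GABBR1, which binds GABA, and GABBR2, which couples to the G protein. Gabbr1 was at 163, 32.9, 74.1 and 20.2 CPM in precursors, committed precursors, mature oligodendrocytes and fibroblasts, and Gabbr2 at 106, 3.34, 6.67 and 0.553 CPM. Gabbr1 was thus lowest of the lineage in committed precursors, which were called below both precursors and mature oligodendrocytes, the second of these calls not within 613s. Its call between precursors and mature oligodendrocytes (log2 ratio 1.12) was not made within any of the 3 sets, where precursors had 174, 162 and 68.4 CPM and mature cells 94.5, 85.8 and 40.9 CPM, and it was lost under other scalings (0.75 and 0.71). Gabbr2 made up 43.1% of the GABA-B RPKM in precursors, 10.5% in committed precursors and 9.46% in mature oligodendrocytes. In precursors Gabbr2 was at 125, 27.0 and 110 CPM in 600s_182s, 613s and 1025s_182s, which made its share 45.4%, 16.2% and 65.0%. Both genes were read in 25.0% of thinned precursor wells (19.4 to 31.3) and 4.13% of mature wells (1.90 to 7.69), while Gabbr1 without Gabbr2 was read in 43.5% and 44.0%.

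Acetylcholine and somatostatin receptors had the steepest drop in family sum between precursors and committed precursors. Chrna4, an alpha subunit of the main nicotinic receptor of the brain, was at 215 CPM in precursors (212 to 218), 5.59 CPM in committed precursors (4.89 to 6.36), 3.76 CPM in mature oligodendrocytes (3.38 to 4.17) and 1.11 CPM in fibroblasts (0.735 to 1.60). Sstr1, an inhibitory receptor for somatostatin, was at 117 CPM (114 to 119), 2.71 CPM (2.23 to 3.26), 1.08 CPM (0.878 to 1.31) and 0.395 CPM (0.189 to 0.726). Chrm1, a muscarinic receptor that couples to calcium release, was at 46.6, 0.775, 2.16 and 0.553 CPM. Their log2 ratios of precursors to committed precursors were 5.03, 4.98 and 4.75, and within 600s_182s and 613s those of the 3 genes ran from 3.80 to 6.01. The family sum was 379 CPM in precursors and 9.13 CPM in committed precursors, while the AMPA sum was 1175 and 526 CPM.

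These genes were uneven among precursor wells. Chrna4 ran from 0 to 2177 CPM with a median of 9.27, and 69 of 216 wells reached 100 CPM; Sstr1 ran from 0 to 1362 CPM with a median of 8.23, and 74 wells did. Of the 69 wells high in Chrna4, 33.3% were also high in Sstr1, and of the other 147 wells 34.7%. By set, precursors had 264, 74.7 and 91.7 CPM of Chrna4 and 145, 23.6 and 65.4 CPM of Sstr1 in 600s_182s, 613s and 1025s_182s. After thinning, Chrna4 was read in 46.8% of precursor wells, 14.3% of committed precursor, 6.88% of mature and 5.13% of fibroblast wells, and Sstr1 in 48.1%, 15.6%, 4.59% and 3.85%. In committed precursors of 600s_182s the shares were 16.9% and 18.5% beside 15.0% for each gene in the 20 fibroblasts of that set. The partner of Chrna4 in that receptor, Chrnb2, was at 28.8, 21.9, 9.28 and 29.8 CPM in precursors, committed precursors, mature oligodendrocytes and fibroblasts, with 16.3% of its exon bases shared with Adar on the other strand.

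A thinned precursor well had reads of a median of 10 of the 35 receptor genes (1 to 19), a committed precursor well 6 (1 to 10), a mature well 3 (0 to 10), a fibroblast well 2 (0 to 10) and an endothelial well 1 (0 to 9). The medians were higher in 600s_182s than in 1025s_182s in each cell type with a value: 10 against 6 in precursors, 5 against 2 in mature oligodendrocytes, 5 against 1 in fibroblasts and 4 against 0 in endothelial wells. Within each set the order precursors over mature oligodendrocytes held.

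Genes that act with these receptors were read from lists of the same pathways. Of 15 auxiliary subunits of glutamate receptors, 10 were higher in precursors than in committed precursors and 0 lower (median log2 ratio 2.71), and against mature oligodendrocytes 10 were higher and 1 lower (2.85). For these and the following lists, the shares of all genes at 10 CPM or more were 23.9% higher and 10.6% lower in precursors against committed precursors, and 30.8% and 11.3% against mature oligodendrocytes. Over all genes, low ones included as in the lists, the shares were 5.89% and 2.61%, and 7.62% and 2.79%. Cacng4, an AMPA receptor auxiliary protein, was at 769, 117, 20.8 and 33.1 CPM in precursors, committed precursors, mature oligodendrocytes and fibroblasts. Olfm2, a secreted partner of AMPA receptors, was at 538, 40.2, 13.1 and 13.0 CPM, and Shisa7 at 122, 17.6, 4.46 and 0.671 CPM. The 1 auxiliary gene higher in mature oligodendrocytes than in precursors was Cnih3, at 11.1 against 0.256 CPM.

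Of 23 postsynaptic scaffold and adhesion genes, 8 were higher in precursors than in committed precursors and 2 lower (median log2 ratio 0.90). These are larger shares than those of all genes (5.89% and 2.61%) and nearer to those of genes at 10 CPM or more (23.9% and 10.6%). Against mature oligodendrocytes 12 were higher and 1 lower. Nlgn3, an adhesion protein of synapses, was at 849, 598, 131 and 20.4 CPM, though 41.2% of its exon bases are shared with Gm21986 on the same strand. Dlgap1, a scaffold protein, was at 189, 147, 13.5 and 1.97 CPM, thus, like Gria2, close in precursors and committed precursors. Dlg1 was the 1 scaffold gene higher in mature oligodendrocytes than in precursors, at 118 against 25.8 CPM.

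Of 12 genes for glutamate and GABA transport and metabolism, 6 were higher in precursors than in committed precursors and 2 lower. Slc1a1, a glutamate transporter, peaked in committed precursors with 1190 CPM, against 333 CPM in precursors and 53.2 CPM in mature oligodendrocytes (31.9% of its exon bases overlap 4430402I18Rik on the other strand). Glul, which makes glutamine from glutamate, was at 720 CPM in mature oligodendrocytes against 103 CPM in precursors, and Slc6a13, a GABA transporter, at 572 CPM in fibroblasts against 4.96 CPM in precursors. Of 3 RNA editing enzymes, Adarb1, which edits Gria2, was at 30.5 CPM in precursors, 2.06 CPM in committed precursors, 16.5 CPM in mature oligodendrocytes and 17.7 CPM in fibroblasts, beside 311 CPM of Gria2 in committed precursors. The edited base itself is not in these counts.

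Other receptors of the same families were mostly low. Of 6 further glutamate receptors, 2 were higher in precursors than in committed precursors and 0 lower. Against mature oligodendrocytes 4 of the 6 were higher in precursors and 0 lower. Among these 4 was Grid1, at 103, 98.0, 2.09 and 8.49 CPM in precursors, committed precursors, mature oligodendrocytes and fibroblasts. Gabrr2, a further GABA receptor gene, was higher in mature oligodendrocytes, at 27.1 CPM against 1.72 CPM in precursors. Of 13 further acetylcholine receptor genes, 0 were called between precursors and committed precursors, and none of 4 further somatostatin receptors was called in any of the 4 comparisons.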

How the data were processed

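The authors deposited 1 table of raw read counts per gene for 1152 wells. The submitters' processing notes name GRCm38/mm10, featureCounts (Subread 1.4.6-p5), TopHat2 2.1.1 and SAMtools 0.1.18. Counts were turned into CPM by each well's total. Wells with at least 50000 reads and under 5% mitochondrial reads were gated to the cell type with the highest mean log2(CPM + 1) over 6 markers, where at least 4 markers had 20 CPM and the mean exceeded every other by at least 1; 55 wells stayed ungated and 55 fell to other types. Doublets were not called; leaving out wells with markers of a second lineage is among the alternatives. Counts were summed per cell type. Calls are by size, with no test. Intervals are exact Poisson and Clopper-Pearson, at 95%, and cover counting error only, since reads without molecular identifiers are not independent molecules. Exon lengths came from GENCODE on GRCm38, in which all 35 genes were found, and promoters from RefSeq (GRCm38.p6). The scripts were tested on simulated data. Python 3.11.15 and, for TMM factors, edgeR 4.0.16 were used. The receptor genes, marker lists and pathway lists were chosen with earlier results of these data known. All receptor genes at 10 CPM or more in a cell type are described, and of each pathway list up to 3 called genes with the largest ratios, or any in a count of 5 or fewer. Part of the list of further GABA-A receptor genes is not reported here.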

Additional observations from a re-analysis of the deposited data

Results flagged for a closer look

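The 158 wells with at least 50000 reads and 5% or more mitochondrial reads were not used above. Their median depth was 83077 reads. In 4 receptor genes their summed level was at least 10 CPM and over 2 times that of each of the 4 cell types. Gria1 was at 138 CPM (95% Poisson interval 132 to 144) against at most 44.6 CPM in a cell type, Gabrb1 at 92.6 CPM (87.7 to 97.6) against 31.0 CPM, Grin2b at 62.4 CPM (58.4 to 66.6) against 4.51 CPM, and Grin2c at 23.6 CPM (21.2 to 26.2) against 4.04 CPM. The neuron markers summed to 5012 CPM in these wells, against 516 CPM in precursors, and their part in the 4 levels was not tested. Including these 4, 10 receptor genes were higher in these wells than in each of the 4 cell types, and the rest were not. Among the 10 were Gabbr1, at 181 CPM against 163 CPM in precursors, and Grik5, at 45.0 against 28.5 CPM. Grin1, at 68.3 CPM in precursors, was at 67.3 CPM in these wells, and Chrm1, at 46.6 CPM in precursors, at 42.5 CPM. Others were far lower: Sstr1, at 117 CPM in precursors, was at 2.57 CPM in these wells, and Grin3a, at 279 CPM in precursors, at 43.8 CPM.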

How the results depend on the processing

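Over 18 alternatives (mitochondrial limit, depth, marker level, margin, second-lineage wells, mean over wells, scaling, CPM minimum, added CPM, each set left out, and, chosen after seeing the data, wells with neuron or astrocyte markers left out), all 72 counts of receptor genes higher in the earlier or precursor cells stayed within 1.5 times the reported one. The 1944 ratios of single genes include uncalled ones, whose sign was not followed, and 0 of the called ones changed sign. The alternatives share most of their wells. Within single sets the sign was less steady. Of the calls higher in precursors, 21 of 24 against committed precursors had the same sign in every set with a value. Against mature oligodendrocytes these were 22 of 23, and against fibroblasts 25 of 26. Leaving out 600s_182s cost most calls: 18 of 24 were kept against committed precursors, 19 of 23 against mature oligodendrocytes, 24 of 26 against fibroblasts, and 7 of 9 between committed precursors and mature oligodendrocytes (Grik5 and Grm5 lost). Between precursors and mature oligodendrocytes the median log2 ratio of genes at 10 CPM went from 0.39 to -0.01 (TMM) and -0.04 (median of ratios), and the share of called genes that were higher in precursors from 73.2% to 57.0% and 55.2%. The same share went from 61.2% to 45.9% and 51.3% for committed precursors against mature oligodendrocytes, and from 69.3% to 63.8% and 57.4% for precursors against committed precursors. Under both scalings 24 of 24, 9 of 9, 22 of 23 and 26 of 26 receptor calls were kept. With a minimum of 1 CPM, 9 receptor genes in place of 4 were higher in mature oligodendrocytes than in committed precursors, and 4380 genes in place of 2738 were higher in precursors than in committed precursors. No paired analysis was possible because the wells carry no replicate numbers and no result comes from a test. Depth limits single wells most: at 50000 reads, 1 read is 20 CPM, so a gene without a read in a thinned well is not shown to be absent.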
